A study of Mus musculus with 8 samples.

Results

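A list of 3220 H2A.X domains sets wild-type mouse embryonic stem (ES) cells in 2i medium against wild-type ES cells in a medium with a protein kinase C inhibitor, called PKCi. It is 1 of 6 such lists, which hold 25499 domains in all, and every domain of the list was taken. The authors marked 693 domains as enriched in 2i and 2527 as enriched in PKCi. Both libraries came from cells of strain 129S6/C57B6 labelled WT and grown on gelatin. The 2i cells were in a commercial 2i kit medium. The PKCi cells were in an equal mixture of DMEM/F12 with N2 and Neurobasal with B27, with leukaemia inhibitory factor and 5 µM Gö6976, the PKC inhibitor. The media therefore differ in base and supplements as well as in the inhibitor, and these cannot be told apart. Each condition had 1 library, with no replicate, so no difference between the media could be tested. The other lists compare serum with 2i, 2i with SRCi, and DNMT1 KO, TDG KD and TKO cells in 15% serum with a control each. SRCi is 1.5 µM CGP77675, a Src inhibitor, and 3 µM CHIR99021, a GSK3 inhibitor, in the same base and supplements as PKCi. The DNMT1 control and the serum side of the first of these lists have no sample of their name among the 8 samples. The lists hold no expression values, so the ES cell label was not checked against marker genes.

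H2A.X is a variant of histone H2A that is built into nucleosomes and is phosphorylated around DNA breaks, the form known as gamma-H2A.X. The antibody used here is labelled as one to H2A.X, so the domains describe where the variant was recovered and not its phosphorylation. 2i medium keeps ES cells in a naive state by blocking MEK and GSK3 signalling, and it is known to lower DNA methylation. PKC inhibition is known as another way to keep mouse ES cells from differentiating.

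The lists carry no header, so the side called 2i here is the one named first in the list's name. Each domain carries 2 scores of the authors. The first is signed and higher toward 2i, and the second is a sum that never passed 1 per kb of length. The signed score multiplied by the length in kb came out as a whole number, within the rounding of the deposited digits, in 1866 of 3173 domains in which this could be judged (58.8%). In the lists of serum with 2i and of 2i with SRCi the share was 57.05% and 55.6%, and in the other 3 lists 0.472% to 1.21%. For those domains the signed score has the form of a mean of whole numbers per 1 kb bin. Whether those whole numbers are reads was not tested, and read depth is unknown. All but 6 of the PKCi domains kept below had scores above 0, so the mark of a side did not follow the sign of the score. Positions are on mm9, and no gene annotation of that build was used here.

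Domains whose signed score lies within 0.05 of 0 were left out. They numbered 18, all marked PKCi, spanned 33.9 Mb and include 5 blocks that begin at the first base of a chromosome. The other 669 autosomal 2i domains and 2475 autosomal PKCi domains are described below. On the autosomes other than chromosomes 6 and 8, the 2i side covered 0.282% of the 1 kb bins and the PKCi side 83%.

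The sides changed places on chromosomes 6 and 8. The PKCi side covered 59.9% to 90.9% of each of the other 17 autosomes (median 84.1%), where the 2i side covered 0.0146% to 0.769% (median 0.215%). On chromosome 6 the 2i side covered 51.0% and the PKCi side 0.102%. On chromosome 8 the 2i side covered 57.1% and the PKCi side 0.758%. Of the autosomal 2i domains, 536 of 669 lay on these chromosomes, 80.1% (Wilson 95% interval 76.9% to 83.0%), and they held 96.1% of the 2i bases on 11.4% of the autosomal length. Of the autosomal PKCi domains 14 of 2475 lay there, 0.566% (0.337% to 0.947%). These intervals cover counting error only. Chromosomes 6 and 8 were set apart with this coverage known, so the contrast is a description.

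**Figure D1:**
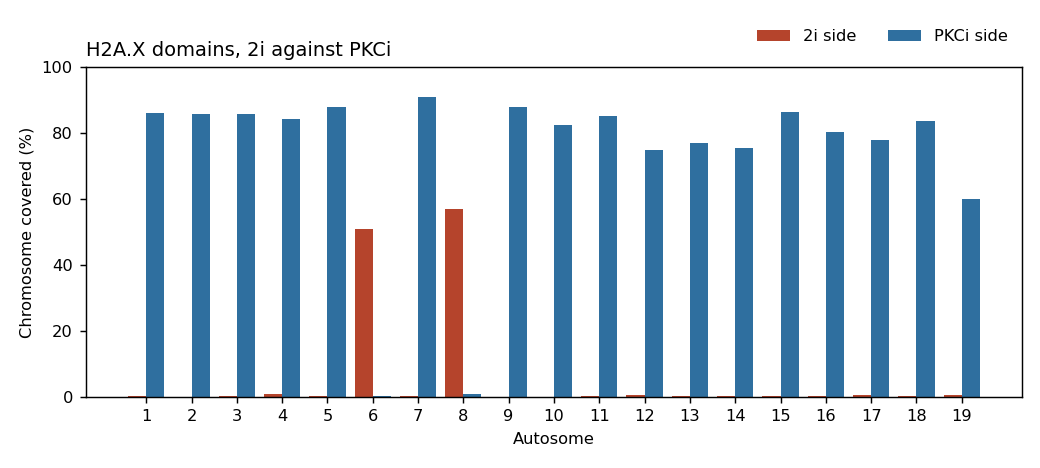
Share of each autosome (percent of its length) covered by domains of the 2i side (red bars) and of the PKCi side (blue bars), 1 library per medium. Red bars stand out at chromosomes 6 (51.0%) and 8 (57.1%), and blue bars reach 59.9% to 90.9% on each of the other 17 autosomes.

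PKCi domains on the other 17 autosomes were broad and had similar scores. They numbered 2461, with a median length of 417 kb (quartiles 174 and 936 kb), and 583 of them (23.7%, Wilson 95% interval 22.1% to 25.4%) reached 1000 kb. Their median signed score was 4.97 (quartiles 4.34 and 5.52). The median score of a chromosome ran from 4.53 on chromosome 11 to 5.30 on chromosome 3, which is a smaller range than that between the quartiles of single domains. Chromosome 7 had the highest PKCi coverage, at 90.9%, with 133 domains of a median 552 kb. That coverage includes a block of 7087 kb, chr7:39352001-46439000, with a score of only 0.0780. With the block, PKCi domains held 138.7 of 152.5 Mb of chromosome 7, and chromosome 5 came next, at 88.0% coverage. Without the block chromosome 7 would rank below chromosome 5. Chromosome 15 had the fewest, 86, and the longest by median, 712.5 kb. Chromosome 19 stood lowest at 59.9%, below chromosome 12 at 74.8%. Its 105 domains had a median of 245 kb, the shortest of the 17, while their median score of 5.28 was near the top of the range. The share of chromosome 19 in no domain was 39.5%, against 8.93% on chromosome 7, where the block named above counts as covered.

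The longest PKCi domains of these chromosomes reached across several megabases. The longest was chr7:24601001-35026000, at 10425 kb with a score of 4.42, followed by chr2:166821001-177084000, at 10263 kb with a score of 3.68. Next came chr4:62184001-69888000, at 7704 kb with 5.41, and chr12:25041001-31606000, at 6565 kb with 4.405. The block at chr7:39352001-46439000, at 7087 kb, ranks between them but had a score of 0.0780, just outside the limit of 0.05. It is the longest of 16 kept PKCi domains that scored within 0.5 of 0, which span 17.35 Mb together. In the list of serum with 2i the serum side covered 98.8% of this block, with a score of -0.00114. In the list of 2i with SRCi the SRCi side covered 99.1% of it, with a score of 0.0238. Just inside the limit, and so left out, was chr8:22496001-22546000, with 0.04.

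Scores below 0, which point away from 2i by sign, occurred in 6 kept PKCi domains. The lowest was chr12:18681001-18682000, at 1 kb with -13.5. It was followed by chr14:42238001-42239000 (-5.65), chr14:4437001-4438000 (-3.46) and chr14:4518001-4519000 (-1.61), each of 1 kb. The next, chr12:18706001-18710000, had 4 kb and -0.876. In the list of 2i with SRCi these places were on the SRCi side, with scores of -1.93, -5.65, -1.73, -1.61 and 1.75 in turn. That list uses a 2i library too, so its values are not separate evidence.

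On the other 17 autosomes the 2i side consisted of 133 short domains covering 6.17 Mb. Their median length was 25 kb (quartiles 7 and 59 kb), and 25 of them (18.8%, Wilson 95% interval 13.1% to 26.3%) were under 5 kb. None reached 1000 kb. Their scores had a median of 17.1 (quartiles 14.5 and 24.4) and did not overlap those of PKCi domains, with a lowest value of 9.955 against a highest PKCi value of 9.42. The marks were made from the same comparison, so this separation describes how the authors' sides were drawn. Chromosomes 4 and 14 held 16 each and chromosome 10 held 1. Chromosome 4 had the highest coverage, at 0.769%, and chromosome 12 the next, at 0.694%.

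The longest 2i domain outside chromosomes 6 and 8 was chr12:116723001-117067000, at 344 kb with a score of 14.9. The next were chr4:145541001-145771000 (230 kb, 13.2), chr1:87344001-87557000 (213 kb, 21.1) and chr4:146704001-146900000 (196 kb, 15.15). Others among the 10 longest were chr5:14870001-15063000 with a score of 24.4, chr1:85157001-85344000 with 23.9 and chr13:12895001-13034000 with 23.9. In the list of 2i with SRCi the 2i side covered at least 98.9% of each of these 10 domains. In the list of serum with 2i the 2i side covered at least 93.8% of each. All 3 lists use a 2i library.

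The highest scores came from much shorter places. The highest was 165 at chr12:68160001-68161000, 1 kb long. The next was 94.8 at chr11:3000001-3100000, which is 100 kb long and so the exception among them. Then came chr17:39979001-39986000 (7 kb, 88.35), chr3:56379001-56380000 (1 kb, 82) and chr17:6457001-6458000 (1 kb, 67.4). Over the 133 domains, score and length ran in opposite directions (Spearman's rho -0.69, across domains of the same libraries, which are not independent). The 25 domains under 5 kb had a median score of 35.3, and the 20 domains of 100 kb or more had one of 15.0.

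**Figure D2:**
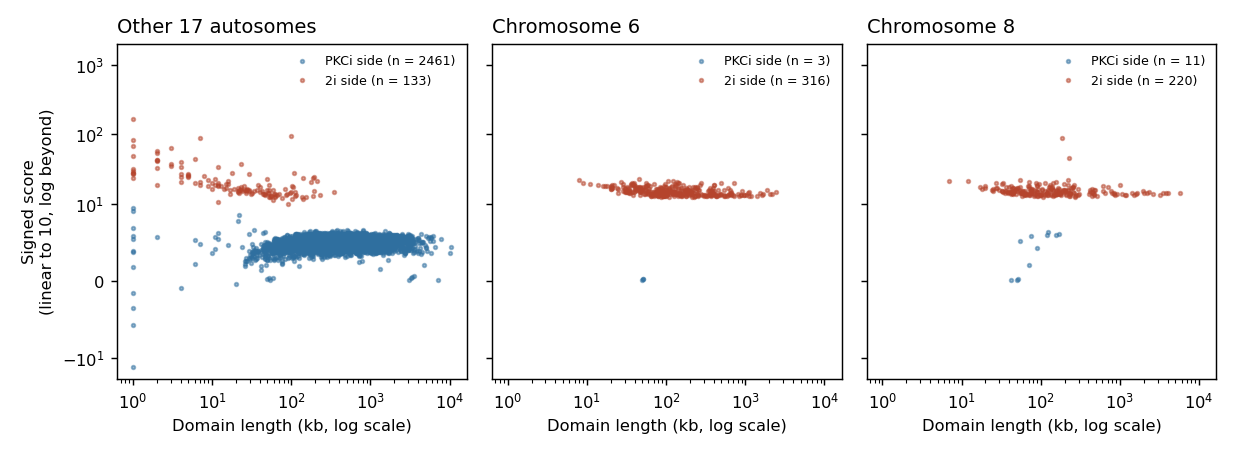
Signed score (linear up to 10, log beyond) against length (kb, log axis) for each domain of the 2i side (red points) and the PKCi side (blue points), on the other 17 autosomes, chromosome 6 and chromosome 8. On the 17 autosomes the 133 red points lie above 9.955 and the 2461 blue points below 9.42, while on chromosome 6 only 3 blue points remain, all near 0.

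Many of the 2i domains on these chromosomes lay close together. Joined where less than 1 Mb apart, the 133 domains formed 69 single domains and 18 groups that held the other 64. The largest group was chr4:145019001-147170000, with 13 domains that covered 1098 of 2151 kb and scores from 12.1 to 15.98. It was followed by chr14:42066001-44894000, with 8 domains and a median score of 25.1, and by chr12:114858001-117067000 and chr13:66105001-66599000, with 5 each. The group on chromosome 4 gave its 5 Mb window a 2i coverage of 22.0%, the highest among 431 windows of the 17 autosomes, of which 349 had none. Of the 133 domains, 9 directly adjoined a listed block with a score within 0.5 of 0. Stretches in no domain were not counted as such blocks. For example, chr11:3000001-3100000 and chr18:3000001-3106000 begin just past 3000 kb on chromosomes with no domain from base 1. The pair chr1:85157001-85344000 and chr1:87344001-87557000 lies on either side of a block of 2000 kb with a score of 0.0015. The pair chr5:14870001-15063000 and chr5:15113001-15222000, with scores of 24.4 and 27.5, flanks a block of 50 kb with 0.2. Whether such blocks are gaps of the assembly, or the domains repeats, was not tested.

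On chromosome 6 the 2i side had 316 domains covering 76.3 Mb. Their median length was 117.5 kb (quartiles 60 and 252.5 kb), and none was under 5 kb. Domains of 100 kb or more made up 55.1% (Wilson 95% interval 49.5% to 60.5%), against 15.0% (9.95% to 22.1%) on the 17 autosomes. The median score was 14.9, and all lay between 12.5 and 23.0. The longest were chr6:13757001-16225000, at 2468 kb with a score of 15.0, and chr6:109030001-111200000, at 2170 kb with 13.7. The highest score, 23.0, was at chr6:35443001-35489000, which is 46 kb long. No 2i domain of chromosome 6 reached a score of 30, whereas 21 of the 133 on the 17 autosomes did. The only kept PKCi domains were chr6:30703001-30753000, chr6:139611001-139662000 and chr6:145968001-146019000, of 50, 51 and 51 kb, with scores of 0.18, 0.255 and 0.235. They are among the 16 kept PKCi domains of the list that scored within 0.5 of 0, of which 10 were 50 to 58 kb long. In the list of serum with 2i the serum side covered at least 96% of each, with scores of -0.24, -0.314 and 0. In the list of 2i with SRCi the SRCi side covered at least 96% of each, with scores of 0, 0.2745 and 0. These places thus scored near 0 against serum and SRCi as well, in lists that use a 2i library too.

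Chromosome 8 gave a like picture, with 220 domains of the 2i side covering 75.2 Mb. Their median length was 119.5 kb (quartiles 58 and 237 kb) and their median score 14.7. The longest was chr8:98885001-104635000, at 5750 kb with a score of 14.3, followed by chr8:49309001-53353000 (4044 kb, 14.4) and chr8:60658001-64424000 (3766 kb, 14.5). The highest scores stood apart from the rest of the chromosome, with 87.5 at chr8:19853001-20038000 and 45.9 at chr8:19575001-19803000, and then 22.4 at chr8:74285001-74507000. The first of these adjoins a block of 2001 kb that scored 0.0015. A kept PKCi block of 50 kb that scored 0.1, chr8:19803001-19853000, lies directly between the first and the second. Of 11 PKCi domains on chromosome 8, 3 scored within 0.5 of 0 and were 42 to 51 kb long. The longest were chr8:90337001-90506000, chr8:123266001-123422000 and chr8:122672001-122794000, with scores of 6.15, 5.97 and 6.41. These values lie above the upper quartile of PKCi domains on the 17 autosomes, 5.52.

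The scores of all domains together restate which side covers a chromosome, since 2i domains score above PKCi domains. Taken alone, 2i domains had a length-weighted mean of 14.6 on chromosome 6 and 14.9 on chromosome 8. PKCi domains alone had one of 4.93 on the 17 autosomes. Weighted by length over both sides, the mean signed score was 14.6 on chromosome 6 and 14.8 on chromosome 8. On the other 17 autosomes it lay between 4.51 on chromosome 7 and 5.43 on chromosome 19, with a median of 4.97. The value of chromosome 7 includes its block of 7087 kb with a score of 0.0780. Bases in no domain carry no deposited score, and they made up 46.85% of chromosome 6, 37.1% of chromosome 8 and 16.3% of the 17 autosomes. The means therefore describe the listed domains and not whole chromosomes. Whether the number of copies of chromosomes 6 and 8 differed between the cultures was not tested, since the lists hold no input libraries.

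**Figure D3:**
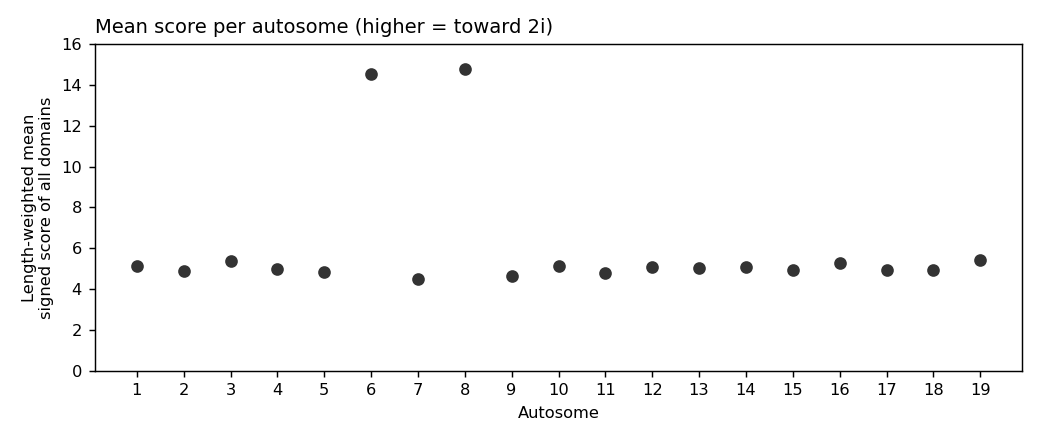
Length-weighted mean signed score of all kept domains of each autosome, 1 point per autosome, with higher values toward 2i. Chromosomes 6 and 8 lie at 14.6 and 14.8, and the other 17 autosomes between 4.51 and 5.43. These means follow which side covers the chromosome, so they are not a result separate from coverage.

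Along chromosomes 6 and 8 the 2i side was broken up rather than continuous. Neighbouring 2i domains were a median of 120 kb apart on chromosome 6 and 121.5 kb on chromosome 8. In windows of 5 Mb the 2i coverage of chromosome 6 ran from 17.8% (chr6:70000001-75000000) to 87.7% (chr6:15000001-20000000), with a median of 50.8%. All 29 windows held more 2i than PKCi bases. On chromosome 8 it ran from 2.4% (chr8:120000001-125000000) to 99.2% (chr8:100000001-105000000), with a median of 59.99%. That lowest window was the only one of 26 in which PKCi bases were more, at 9.04%, and it holds 2 of the 3 longest PKCi domains of the chromosome. Over the 431 windows of the 17 autosomes PKCi coverage had a median of 85.9% (quartiles 79.7% and 92.2%). The only window with more 2i than PKCi bases was chr14:1-5000000, with 0.08% against 0.06%. It holds the longest stretch of these chromosomes in no domain, chr14:1-4285000, which no list covers.

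**Figure D4:**
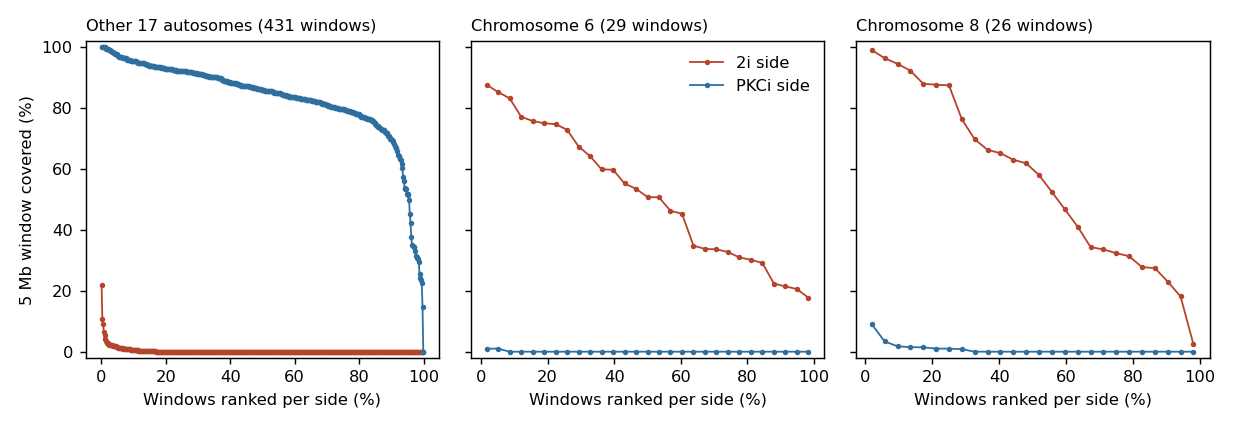
Share of each 5 Mb window (percent) covered by the 2i side (red) and the PKCi side (blue), with windows ranked separately for each side and rank given as a percentage of windows. On chromosomes 6 and 8 the 2i side falls gradually from 87.7% and 99.2% to 17.8% and 2.4%, whereas on the other 17 autosomes it is absent from 349 of 431 windows.

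At chromosome ends the PKCi side of the 17 autosomes covered 47.5% of the first 5 Mb, 84.2% of the last 5 Mb and 84.5% of the bases between. By chromosome, coverage of the first 5 Mb ran from 0.06% to 99.5%, with a median of 33.2%. It was at least 91.38% on chromosomes 1, 2, 5, 7 and 9, where a kept domain starts at base 1. On the rest, where no kept domain does, it was at most 34.92%. On chromosomes 3, 4, 6 and 8 a domain from base 1 to 3000 or 3001 kb had a score of 0 to 0.00267, and on chromosome 2 one to 3068 kb had 0.134. Counted from 3000 kb on, a choice made after seeing this, PKCi coverage of the first 5 Mb was 74.6%. The 2i side covered 0.531%, 0.684% and 0.254% of the same parts, and 1.33% of the first 5 Mb past 3000 kb. Some PKCi domains take in such an empty start. The first domain of chromosome 1, chr1:1-4697000, had a score of 2.03, which is 5.61 per kb if all of it falls past 3000 kb.

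The 2 other lists that name 2i are set beside this one, since they use a 2i library as well and do not stand for independent results. On the 17 autosomes the 2i side covered 0.282% against PKCi, 0.289% against SRCi and 4.82% against serum. On chromosome 6 it covered 51.0%, 58.3% and 68% in the same order, and on chromosome 8 it covered 57.1%, 62.5% and 64.1%. The opposite sides covered 83.0% of the 17 autosomes for PKCi, 84.45% for SRCi and 32.5% for serum. PKCi domains had a median of 417 kb and SRCi domains one of 339 kb. The scale of the scores is not stated, and score levels of these sides are not compared between lists.

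The lists that name neither medium share, by their names, no library with the domains described here, so they show where the same bases fall in other libraries. For the DNMT1 control, which has no sample of its name, this could not be checked. DNMT1 copies methylation onto new DNA strands, and TDG is a glycosylase that removes oxidised methylcytosine. The labels do not spell out TKO. The DNMT1 KO cells are labelled with the same strain as the 2i and PKCi cells, and the TDG and TKO cells and their controls with 129/Ola. For the DNMT1 control no sample label is given, so its strain and medium are not known here. In the 17 autosomes DNMT1 KO domains covered 3.65% of the bins, TDG control domains 0.282% and TKO domains 0.405%. The broad opposite sides covered 44.3% for DNMT1 control, 29.1% for TDG KD and 26.4% for TKO control.

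Of the 133 domains of the 2i side on the 17 autosomes, 77 met a DNMT1 KO domain (57.9%, Wilson 95% interval 49.4% to 65.9%), and these were met by 81 of 1312 DNMT1 KO domains (6.17%). A further count gave 48 that met a TDG control domain (36.1%) and 42 that met a TKO domain (31.6%), with 56 of 387 TDG control domains (14.5%) and 44 of 227 TKO domains (19.4%) on the other side. By bases, 45.5% of the 2i side lay in DNMT1 KO domains, 28.5% in TDG control domains and 19.7% in TKO domains. Each of these shares is larger than the share of the 17 autosomes that the same side covers. The broad sides held less of it than of the 17 autosomes, at 3.29% in DNMT1 control, 2.48% in TDG KD and 6.29% in TKO control. At some places the 3 lists covered equal shares, and whether these are the same bases was not tested. In chr4:146704001-146900000 the TKO, TDG control and DNMT1 KO sides each covered 71.4%, and in chr4:145541001-145771000 each covered 46.5%. At chr11:3000001-3100000 each covered 100%. In chr13:12895001-13034000 TDG control and DNMT1 KO each covered 97.1% and TKO 0%.

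Of the PKCi bases of the 17 autosomes, 50.7% lay in DNMT1 control domains, 32.3% in TDG KD domains and 28.7% in TKO control domains. These shares lie near the 44.3%, 29.1% and 26.4% of all bins that the same sides cover. DNMT1 KO domains held 1.02% of the PKCi bases, against 3.65% of all bins. As a share of the other lists, PKCi domains held 95.1% of DNMT1 control bases, 92.0% of TDG KD bases and 90.4% of TKO control bases, beside the 83% of bins that the PKCi side covers. By count, 1487 of 2461 PKCi domains (60.4%) met a DNMT1 control domain, and 2215 of 2257 DNMT1 control domains (98.1%) met a PKCi domain. DNMT1 KO domains met PKCi domains in 688 of 1312 cases (52.4%), but only 23.2% of their bases lay inside them. The stretches in neither side held 73.3% of the DNMT1 KO bases on 16.3% of the length, and 16.4% of those stretches lay in DNMT1 KO domains.

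On chromosomes 6 and 8 the 2i domains and the stretches between them also differed in the lists of DNMT1 and TDG. DNMT1 KO domains covered 6.89% of the 2i bases of chromosome 6 and 0.851% of the bases in neither side, so that 89.8% of DNMT1 KO bases lay in 2i domains. On chromosome 8 the values were 3.5%, 0.369% and 93.6%. TDG KD domains lay more between the 2i domains, covering 55.2% there and 18.1% inside on chromosome 6, and 74.5% and 22.2% on chromosome 8. DNMT1 control domains covered 48.5% between and 36.4% inside on chromosome 6, and 66.8% and 42.4% on chromosome 8. TKO control domains differed less on both chromosomes, between and inside, at 49.9% and 46.2% on chromosome 6 and 37.35% and 39.0% on chromosome 8. The highest-scoring 2i domains of chromosome 6 were mixed in this respect. DNMT1 KO covered 91.1% of chr6:112992001-113116000, 80.95% of chr6:30753001-30858000 and 76.6% of chr6:119856001-119993000, and 0% of chr6:35443001-35489000 and chr6:137034001-137042000.

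**Figure D5:**
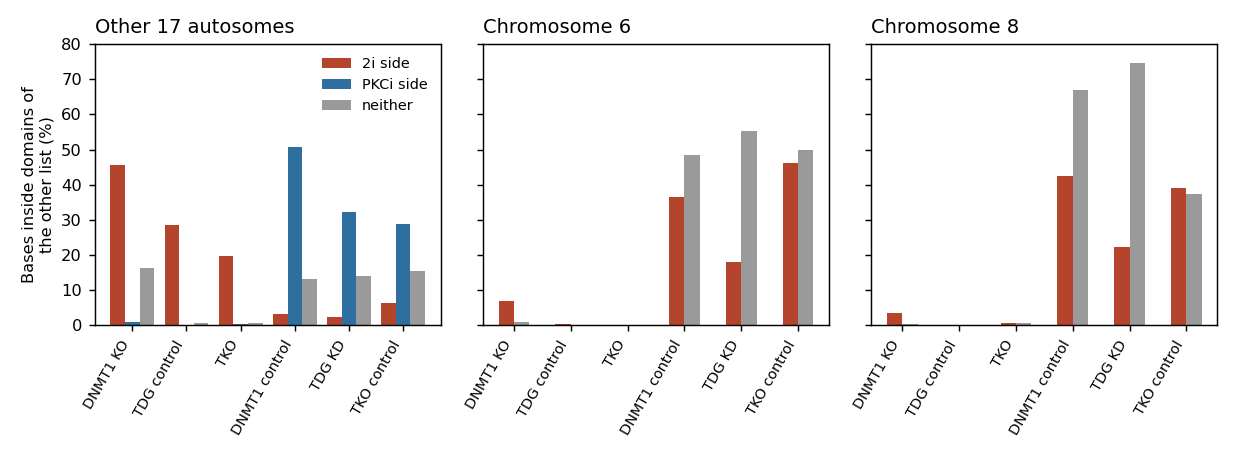
Percent of bases inside domains of the DNMT1, TDG and TKO lists, for bases of the 2i side (red), the PKCi side (blue, other 17 autosomes only) and neither side (grey). On the 17 autosomes the 2i side is highest in DNMT1 KO domains (45.5%) and the PKCi side in DNMT1 control domains (50.7%), and on chromosomes 6 and 8 TDG KD domains cover more of the grey stretches (55.2% and 74.5%) than of the red domains (18.1% and 22.2%).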

How the data were processed

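H2A.X was profiled by native chromatin immunoprecipitation from micrococcal nuclease digests, with 0.5 µg of antibody, per the labels' protocols. The submitters' processing notes list Bowtie2 (version 2.0.6) and the mouse build mm9. Domain calling and depth scaling: not given in the sources used here. The deposited lists give each domain on a 1 kb grid with a side and 2 scores of the authors, whose scale is not stated. The first condition in a list's name was taken as the first side, since the lists have no header. Near-zero domains (within 0.05 of 0) were left out of the 3 lists that name 2i and kept in the others. In values given for single regions, those of the lists of serum with 2i and of 2i with SRCi were kept. A chromosome's length is how far the 6 lists reach. Coverage, quartiles, windows of 5 Mb and overlaps of at least 1 base were computed with Python 3.11.15, numpy 2.4.6 and pandas 2.3.3, and shares carry Wilson intervals (scipy 1.17.1). The overlap code was tested on simulated data. Depth is unknown. The regions, chromosome classes and alternatives were chosen with earlier results of these data known. Regions were named by a rule: per class the longest domains and those with the most extreme score. No test was run, since each condition has 1 library.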

Additional observations from a re-analysis of the deposited data

How the results depend on the processing

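With 1 library per medium, no replicate could be left out. No paired analysis was possible because there are no replicates to pair. Of 154 alternative values of 41 results, 90 stayed within 1.5 times (counts) or the 95% binomial interval (other values). Those intervals were taken over 1 kb bins for coverage and chromosome ends, where they are narrow. For medians and for shares of domains they were taken over domains. Merging within 10 kb moved no result. A limit at 50% of each side kept the highest 2i scores and the lowest PKCi scores, which takes in the PKCi domains near 0. By construction it gave fewer domains, 143 and 101 of the 2i side on chromosomes 6 and 8. Of the PKCi side it kept 1230 on the 17 autosomes and 5 on chromosome 8. Coverage by 2i was then 0.113% (median of the 17), 14.1% (chromosome 6) and 12.9% (chromosome 8), and coverage by PKCi 39.3% (median of the 17) and 0.23% (chromosome 8). Median lengths were 13, 86 and 90 kb for 2i (17 autosomes, 6 and 8) and 343.5 kb for PKCi, and 72.8% of 2i domains lay on 6 and 8. PKCi domains then met TKO control at 39.9%, TDG control at 6.585%, TDG KD at 58.5%, DNMT1 control at 55.7% and DNMT1 KO at 30.4%. Keeping near-zero domains gave 5 PKCi domains on chromosome 6 and PKCi coverage of 85.05% (median of the 17), 2.14% (chromosome 6) and 5.88% (chromosome 8). With scores within 0.5 of 0 left out, chromosome 6 had 0 PKCi domains and 0% coverage, and chromosome 8 had 0.65% coverage. Medians were not computed under this setting for any class. As a share of bases covered by either side, 2i had 0.25%, 99.8% and 98.7% and PKCi 99.75%, 0.199% and 1.31% (17 autosomes, 6 and 8). Without the first 3000 kb, chosen after seeing the data, 2i covered 52.1% of chromosome 6 and 58.4% of 8, and PKCi a median of 85.8% of the 17. Without domains under 5 kb, 2i domains of the 17 had a median of 35.5 kb and a median score of 15.8, and 83.2% of 2i domains lay on 6 and 8. By covered bases that share was 96.1%. Weighted by length, median scores were 14.9, 13.96 and 14.3 for 2i (17 autosomes, 6 and 8) and 5.065 for PKCi on the 17. With an overlap of 50% of the shorter domain, PKCi met TKO control at 44.9%, TDG KD at 37.3%, DNMT1 control at 57.1% and DNMT1 KO at 12.3%. By shared bases, 2i had 6.29% in TKO control, 19.7% in TKO, 2.48% in TDG KD, 3.29% in DNMT1 control and 45.5% in DNMT1 KO, and PKCi 28.7%, 0.304%, 32.3%, 50.7% and 1.02% in the same order and 0.12% in TDG control. Over 10 Mb, 2i covered 0.377% of the starts and 0.872% of the ends of the 17 autosomes and PKCi 63.3% and 85.6%, and from 3000 kb on the first 5 Mb had 1.33% and 74.6%. The cause was not tested except where the alternative itself shortens the list.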

Other observations

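Outside the autosomes, the PKCi side covered 96.8% of X in 30 domains with a median score of 3.49, below the 4.53 that was the lowest median among the 17 autosomes. Weighted by length over both sides, the mean score of X was 3.58. The longest domain of the list lies there, chrX:32179001-92130000, at 59951 kb with a score of 3.502. The 2i side held 20 domains on X, with a median of 27.5 kb and a median score of 16.6. The longest, chrX:120949001-121018000, had 69 kb and 11.8.

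On Y the PKCi side had 4 kept domains covering 17.7%, led by chrY:1-1789000 with a score of 2.72, and the near-zero block chrY:2903001-15902000 was left out. The 2i side had 3 domains with scores of 34 to 47.6. The longest of them, chrY:2848001-2903000, adjoins that block and lay wholly within the DNMT1 KO, TDG control and TKO sides. The mitochondrial genome was a single 2i domain of 16 kb with a score of 75, and it was also wholly within the DNMT1 KO and TKO sides but on the TDG KD side.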
